A study of Mus musculus with 1 sample.

Results

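The genes described here encode proteins of tight, gap and adherens junctions, and they were taken by symbol from the gene list of the library: the claudins Cldn11, Cldn3 and Cldn5, Ocln, F11r, Tjp1, Gja1, Cdh2 and Ctnna1. They are 9 of the 27998 genes listed, and all 9 were present. They were chosen by symbol and with no cut on measured values, but with earlier results of these data known.

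Tight junctions seal neighbouring cells with claudins, occludin and junctional adhesion molecules, which are bound from inside the cell by scaffold proteins such as ZO-1. Gap junctions join the interiors of neighbouring cells through channels built from connexins, and adherens junctions couple cadherins to the actin cytoskeleton through catenins. In the testis, Sertoli cells build all of these at their shared borders, where they make up the blood-testis barrier, and at the age studied here that barrier has not yet closed.

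The data came from 1 library of wild type C57BL/6 mice at postnatal day 8. Testis cells of 3 mice were pooled in equal numbers after enrichment for THY1, a surface protein of undifferentiated spermatogonia, and a small number of unselected testis cells was added back. The share of each cell type therefore follows from this mixture, and neither the mouse nor the fraction that a cell came from is marked in the matrix. The library with a Zscan2 knockout was not analysed here. Messenger RNA was captured in droplets (10x Genomics Chromium, v2 chemistry) and counted as UMIs, the molecular tags that mark single RNA molecules.

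The matrix held 970 cell barcodes with 2655 to 44915 UMIs each, and 920 cells passed the filters on genes, mitochondrial UMIs and doublets. Of the kept cells, 255 were Sertoli-like (27.7%, exact binomial interval 24.9 to 30.7%), 324 were germ cells, 186 were stromal-like, 94 were peritubular myoid-like and 35 were macrophage-like. Among the germ cells, 134 were differentiating-like, 109 were SSC-like (spermatogonial stem cell-like) and 81 were progenitor-like. The remaining 26 cells formed a small cluster that T cell markers named but that was mixed: 12 of its cells held Cd3g UMIs, 10 held Rgs5 UMIs 3 held Cldn5 UMIs and 1 held none of them, with no cell in more than 1 of these sets. The junction genes were kept out of the genes used for clustering, so that none of them defined a class.

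The Sertoli-like clusters were named by their markers, so the high level of those markers there follows from the naming. All 8 Sertoli markers (Sox9, Amh, Wt1, Aard, Rhox8, Dhh, Fshr and Amhr2) had UMIs in the Sertoli-like cells, where they summed to 5141 UMIs per 1000000 (CPM), against 31.0 to 103 CPM in the other classes. Germ cell markers summed to 33.1 CPM in Sertoli-like cells and to 1350 CPM in germ cells. The median depth was 8343 UMIs per cell in Sertoli-like cells and 18217 UMIs in germ cells, and levels are therefore given as CPM of the summed UMIs of a class. There were no replicates and no test was made. Each interval in parentheses is an exact 95% interval for counting error alone.

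The sequences before the start sites of 3 members are shown because Cldn11 and Gja1 had the largest ratios of Sertoli-like over germ cells, while Cldn3 had UMIs in germ cells and none in Sertoli-like cells. Of the 9 members, 7 matched an entry of the RefSeq promoter table (GRCm38.p6), and Cdh2 and Ctnna1 did not. Each stretch holds the 250 bases before the RefSeq start on the plus strand, at chr3:31149670-31149919 for Cldn11, at chr10:56377050-56377299 for Gja1 and at chr5:134985964-134986213 for Cldn3. Capitals mark the matches to the motifs searched, on either strand.
Cldn11: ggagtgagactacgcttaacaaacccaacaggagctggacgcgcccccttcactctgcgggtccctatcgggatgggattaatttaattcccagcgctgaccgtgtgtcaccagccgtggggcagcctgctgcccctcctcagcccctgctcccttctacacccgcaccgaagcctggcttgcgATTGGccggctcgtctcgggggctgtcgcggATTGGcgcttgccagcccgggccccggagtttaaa
Gja1: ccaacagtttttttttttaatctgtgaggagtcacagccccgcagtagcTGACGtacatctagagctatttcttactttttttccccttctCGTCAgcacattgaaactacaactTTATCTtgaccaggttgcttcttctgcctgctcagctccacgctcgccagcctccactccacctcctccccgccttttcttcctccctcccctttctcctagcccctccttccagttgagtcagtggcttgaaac
Cldn3: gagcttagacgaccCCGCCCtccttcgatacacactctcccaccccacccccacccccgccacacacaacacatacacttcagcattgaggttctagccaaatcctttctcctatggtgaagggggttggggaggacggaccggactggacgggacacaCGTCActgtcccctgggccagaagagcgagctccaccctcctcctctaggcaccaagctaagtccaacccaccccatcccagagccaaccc

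Short motifs were sought on both strands of these stretches: the CCAAT box (CCAAT), the GC box (GGGCGG), the TATA box (TATAAA) and the cyclic AMP response half-site (TGACG). GATA was sought as TGATAA with A allowed as the first base and G as the last, and SOX as ACAAAG with T allowed as the fifth base. The Cldn11 stretch, with 63.6% G and C, held 2 CCAAT boxes on the minus strand, beginning 66 and 35 bases before the start. The Gja1 stretch, with 50% G and C, held 2 half-sites, beginning 201 and 159 bases before the start, and 1 GATA match at 135 bases. The Cldn3 stretch, with 60.8% G and C, held 1 GC box at 236 bases and 1 half-site at 91 bases. No matches overlapped, and no SOX or TATA match was found in the 3 stretches. Among 32851 promoters of the same length, 33.8% held a CCAAT box, 17.8% the half-site, 26.5% a GATA match, 32.7% a GC box, 25.2% a SOX match and 12.4% a TATA box. These matches are descriptions of letters and say nothing of binding.

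Sertoli-like cells carried high levels of a set of junction transcripts at this age. Of the 9 members, 5 were at least 2-fold higher in Sertoli-like cells than in all other kept cells: Cldn11, Ocln and F11r of the tight junction, the gap junction gene Gja1 and the cadherin Cdh2. Among 9073 genes with at least 100 UMIs, 16.3% were that much higher (15.5% of the 8214 that the clustering did not use). Cldn3 and Cldn5 were at least 2-fold lower, with no UMI in Sertoli-like cells, against 21.1% and 17.1% of those genes. Both had fewer than 100 UMIs and so lay outside that background, and a member with 0 UMIs there counts as lower at any level elsewhere. For Cldn5 the call rests on the mixed cluster, where 3 cells held 31 of its 40 UMIs. Against germ cells alone, the limit of 3 UMIs put Cldn5 only 1.24-fold lower. Tjp1 and Ctnna1 were within 2-fold. With a mitochondrial limit of 5%, which left 54 Sertoli-like cells, the same numbers of members were higher and lower. The log2 ratio was then 3.68 (1.71 to 5.90) in place of 2.30 for Ocln and 3.54 (3.14 to 3.94) in place of 2.31 for F11r. For Gja1 it was 5.05 (4.40 to 5.75) in place of 5.91. That limit left out cells of the other classes too, so the pool compared also changed. Under it the log2 ratio of F11r was 3.50 over germ cells in place of 1.95, and 3.16 over stromal-like cells in place of 3.30. With the limit of 10% used elsewhere, the median log2 ratio was 2.30 over the 9 members and -0.06 over the 9073 genes.

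**Figure D1:**
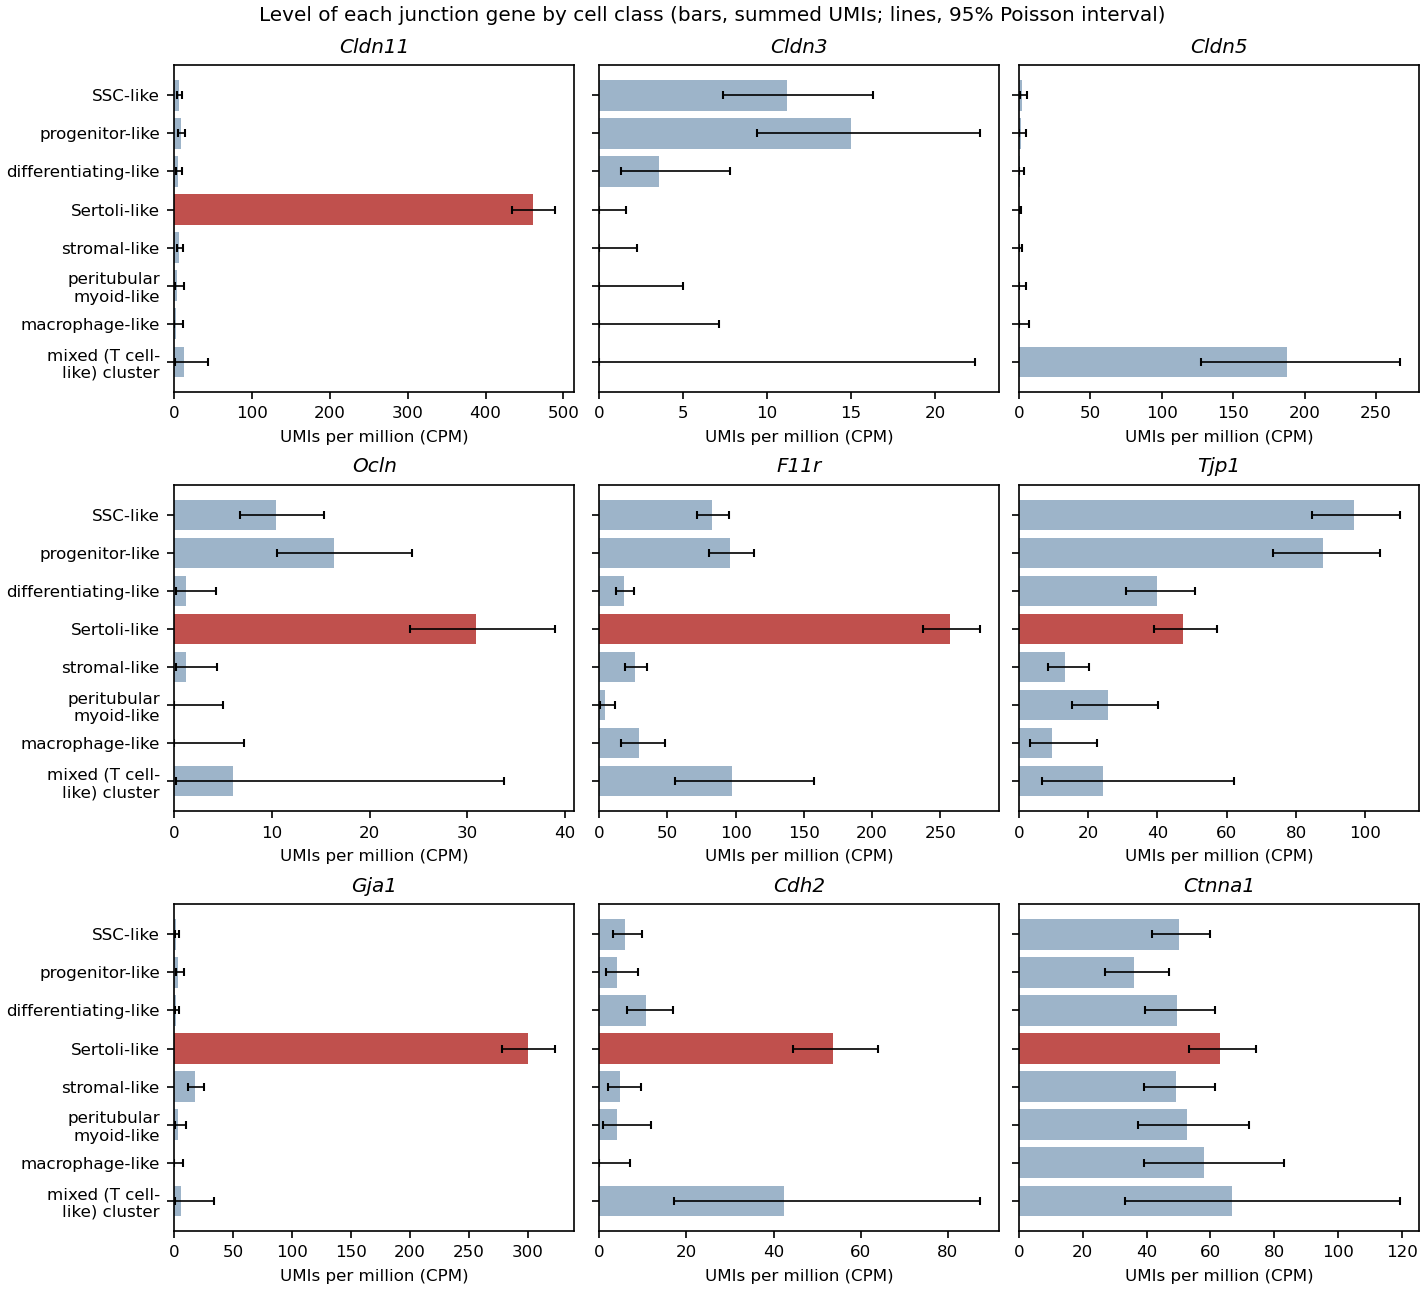
Level of each junction gene in CPM on the horizontal axes, each panel with its own scale, in 8 cell classes; bars are summed UMIs scaled to CPM and lines are 95% Poisson intervals. The Sertoli-like bar (red) is the highest for Cldn11, Ocln, F11r, Gja1 and Cdh2, while Cldn3 has UMIs only in the germ cell classes and Cldn5 has 31 of its 40 UMIs in the mixed cluster.

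Cldn11 (ENSMUSG00000037625) encodes the claudin that Sertoli cells use in the strands of the blood-testis barrier. It lies on the plus strand of chromosome 3 from 31149920 to 31164324 (GRCm38, GENCODE annotation). It had 1058 UMIs in Sertoli-like cells, a level of 461 CPM (434 to 490), against 5.69 CPM (4.21 to 7.52) in all other kept cells, a log2 ratio of 6.34 (5.93 to 6.79) or an 81.1-fold difference. Sertoli-like cells stood alone, since the next classes ranged from 1.94 to 12.1 CPM and neighbours in that order did not differ beyond counting error. A Cldn11 UMI was found in 91.4% of Sertoli-like cells and in 9.26% of germ cells, which held more UMIs per cell. The germ cell level was 1.29% of the Sertoli-like level. The 8 Sertoli markers were at 0% to 1.40% of their Sertoli-like level in germ cells, with a median of 0.996%. In progenitor-like cells Cldn11 was at 1.77% from 12 UMIs, and the highest of these markers there was Wt1 at 1.39% from 7 UMIs. Counts this small leave wide intervals (4.22 to 14.3 CPM for Cldn11), so no excess is read from them. Whether the germ cell UMIs of Cldn11 are free RNA or expression was not tested.

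Cldn11 was also the member with the widest spread over single Sertoli-like cells relative to its mean. Of the 255 cells, 22 had no UMI, 29 had 1, 40 had 2 and 164 had 3 or more, with a median of 4 and a highest value of 19. With each cell thinned to 5000 UMIs, which kept 235 Sertoli-like cells, 80.0% had a UMI, where a Poisson spread around the same mean of 2.26 UMIs would give 89.5%. The variance over the mean was 1.55, compared with 0.968 for Gja1 and 0.893 for F11r, whose means were lower (1.40 and 1.27 UMIs). The median was 1.04 over 5903 genes with a mean of at least 0.1 UMIs, which were not matched to Cldn11 by mean.

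The other 2 member claudins had no UMI in Sertoli-like cells. Cldn3 (ENSMUSG00000070473), a claudin of many epithelia that is also known from the barrier of older mice, lies on the plus strand of chromosome 5 from 134986214 to 134987472. It had 0 UMIs in the 255 Sertoli-like cells, which allows up to 1.31 CPM and a share of up to 1.18% of cells with a UMI. No other somatic class had a Cldn3 UMI either. All 55 of its UMIs were in germ cells, with 27 in SSC-like cells (11.2 CPM, 7.38 to 16.3), 22 in progenitor-like cells (15.0 CPM, 9.38 to 22.7) and 6 in differentiating-like cells (3.58 CPM, 1.31 to 7.80). Set at the limit of 3 UMIs, Cldn3 was 9.66-fold lower in Sertoli-like cells than in SSC-like and progenitor-like cells together. That value leaves out the counting error of the germ cell UMIs. The exact interval of the log2 ratio reached up to -2.92. SSC-like and progenitor-like cells did not differ beyond counting error (log2 ratio -0.42, -1.29 to 0.46), and together they were above differentiating-like cells (log2 ratio 1.82, 0.59 to 3.33). Wbscr25 overlaps Cldn3 on the opposite strand and had 6 UMIs in kept cells, and the sources used here do not state whether the counting used strand.

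Cldn5 (ENSMUSG00000041378), a claudin best known from endothelial cells, lies on the plus strand of chromosome 16 from 18776847 to 18778262. It had 0 UMIs in Sertoli-like cells, with the same limits. Of its 40 UMIs, 31 were in 3 cells of the mixed cluster, which held 4, 12 and 15 each. These 3 cells also carried 72 UMIs of the 6 endothelial markers, including 35 of Egfl7, 15 of Kdr and 14 of Emcn, while the other 23 cells of the cluster carried 8. The endothelial adhesion gene Esam had 34 UMIs in the 3 cells and 11 in the 10 cells with Rgs5. The remaining 9 UMIs were in 9 germ cells, 1 in each, and 6 of these were SSC-like.

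Ocln (ENSMUSG00000021638), which encodes the tight junction membrane protein occludin, lies on the minus strand of chromosome 13 from 100496507 to 100552718. Its level was 30.9 CPM (24.2 to 39.0) in Sertoli-like cells, 16.3 CPM (10.5 to 24.3) in progenitor-like and 10.4 CPM (6.71 to 15.3) in SSC-like cells, and 1.19 CPM from 2 UMIs in differentiating-like cells. The Sertoli-like level was 2.45-fold that of SSC-like and progenitor-like cells together (log2 ratio 1.29, 0.75 to 1.85). Stromal-like cells held 2 UMIs, and peritubular myoid-like and macrophage-like cells held 0. In germ cells as a whole Ocln was at 29.7% of its Sertoli-like level, far above the Sertoli markers there. At 5000 UMIs per cell, 14.04% of Sertoli-like cells, 3.94% of germ cells and 0% of 172 stromal-like cells had an Ocln UMI.

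F11r (ENSMUSG00000038235) encodes junctional adhesion molecule A, an immunoglobulin-like protein of tight junctions, and lies on the plus strand of chromosome 1 from 171437535 to 171464603. Its order of levels was Sertoli-like at 257 CPM (237 to 279), progenitor-like at 96.0 CPM (80.8 to 113) and SSC-like at 83.0 CPM (71.9 to 95.3), with macrophage-like, stromal-like and differentiating-like cells from 29.1 to 17.9 CPM and peritubular myoid-like cells at 4.05 CPM. Sertoli-like cells were 2.93-fold above SSC-like and progenitor-like cells together (log2 ratio 1.55, 1.36 to 1.75), and were 14.4-fold above differentiating-like cells (log2 ratio 3.85, 3.32 to 4.43). The mixed cluster had 97.0 CPM (55.4 to 157), and its 16 F11r UMIs came almost wholly from the 3 cells with Cldn5, which held 15. F11r thus shared the Sertoli-like, SSC-like and progenitor-like pattern with Ocln, and over the 8 classes their log2(CPM + 1) levels had a Pearson correlation of 0.901, a description over classes of 1 library.

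Tjp1 (ENSMUSG00000030516) encodes ZO-1, the scaffold that ties tight junction membrane proteins to actin, and lies on the minus strand of chromosome 7 from 65296165 to 65527781. Unlike the other tight junction members found in Sertoli-like cells, it was highest in germ cells. It stood at 96.7 CPM (84.6 to 110) among SSC-like cells, 87.8 CPM (73.3 to 104) among progenitor-like, 47.5 CPM (39.0 to 57.3) among Sertoli-like and 40.0 CPM (31.0 to 50.8) among differentiating-like cells. SSC-like and progenitor-like cells did not differ beyond counting error, nor did Sertoli-like and differentiating-like cells. Sertoli-like cells were below SSC-like cells (log2 ratio -1.03, -1.37 to -0.69) and above stromal-like cells, which had 13.4 CPM (log2 ratio 1.83, 1.15 to 2.56). The log2 ratio of Sertoli-like over all germ cells was -0.70 (-1.02 to -0.40). With a mitochondrial limit of 5%, which left 54 Sertoli-like cells, it was -0.34 with an interval that included 0 (-1.37 to 0.65).

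Gja1 (ENSMUSG00000050953) encodes connexin 43, the main gap junction protein of Sertoli cells, and lies on the plus strand of chromosome 10 from 56377330 to 56402513. It had 688 UMIs in Sertoli-like cells, a level of 299.7 CPM (278 to 323), against 17.7 CPM (11.8 to 25.4) in stromal-like cells and 1.98 CPM (0.989 to 3.54) in germ cells. The log2 ratio of Sertoli-like over germ cells was 7.24 (6.39 to 8.25), and over stromal-like cells it was 4.08 (3.55 to 4.67). The first was 5.87 with the mitochondrial limit of 5%, with an interval (3.98 to 8.94) that held 7.24. The second was 3.45 (3.02 to 3.91) with no mitochondrial limit. A Gja1 UMI was found in 84.7% of Sertoli-like cells, 7.53% of stromal-like cells (median depth 8371 UMIs) and 3.40% of germ cells. The germ cell level was 0.661% of the Sertoli-like level, within the range of the Sertoli markers, and its source was not tested. The stromal-like level was 5.89% of it, above the highest of the Sertoli markers there (3.47%), and came from 29 UMIs in 14 cells, 7 of them in 1 cell. No cluster was named Leydig, and 6 Leydig cell markers summed to 428 CPM in stromal-like cells, against 0 to 13.9 CPM in the other classes. Whether the stromal-like cells with Gja1 were those with Leydig markers was not tested. Cldn11 and Gja1 had the most similar levels over classes of any pair of members, with a Pearson correlation of 0.930 over 8 classes.

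Cdh2 (ENSMUSG00000024304) encodes N-cadherin, the classical cadherin between Sertoli cells and between Sertoli and germ cells. Its level was 53.6 CPM (44.5 to 63.9) in Sertoli-like cells, 10.8 CPM (6.37 to 17.0) in differentiating-like cells and 4.05 to 5.81 CPM in the remaining named classes, apart from macrophage-like cells with 0 UMIs. The log2 ratio of Sertoli-like over germ cells was 2.97 (2.43 to 3.53). The mixed cluster had 42.4 CPM (17.1 to 87.4), which did not differ from the Sertoli-like level beyond counting error, and its 7 UMIs were all in the 10 cells with Rgs5, a pericyte gene. Germ cells were at 12.8% of the Sertoli-like level, above the Sertoli markers.

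Ctnna1 (ENSMUSG00000037815) encodes alpha-E-catenin, which links cadherin complexes to actin in most cell types. It was the member spread most evenly, from 36.1 CPM (27.02 to 47.2) in progenitor-like cells to 63.2 CPM (53.3 to 74.3) in Sertoli-like cells and 66.7 CPM (33.3 to 119) in the mixed cluster. No neighbours in the order of classes differed beyond counting error. Sertoli-like cells were above progenitor-like cells (log2 ratio 0.81, 0.345 to 1.29) and above all germ cells (0.45, 0.15 to 0.75). Of overlapping annotated genes, Gm15485, which overlaps Cdh2, had 1 UMI and Lrrtm2, which overlaps Ctnna1, had 3, while Gm44794, Gm44792 and Gm44795, which overlap Tjp1, had no entry in the gene list. The log2 ratio of Sertoli-like over all other kept cells was 0.38 (0.10 to 0.66), and that over stromal-like cells was 0.36 (-0.05 to 0.77).

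Within the germ line, several tight junction transcripts were lower in differentiating-like cells. Of the 9 members, 5 (Cldn3, Cldn5, Ocln, F11r and Tjp1) were at least 2-fold higher in SSC-like and progenitor-like than in differentiating-like cells, and Cdh2 was at least 2-fold lower. Only F11r, Tjp1 and Ctnna1 had 100 UMIs in germ cells, and of these F11r and Tjp1 were higher and none was lower. Among 6064 genes with at least 100 germ cell UMIs, 5.82% were higher and 4.22% lower by that much, and among the 5439 that the clustering did not use, 5.41% and 2.70%. The median log2 ratio was 1.22 over the 9 members and -0.11 over the 6064 genes. By gene, the log2 ratio was 2.30 (1.75 to 2.89) for F11r, 1.22 (0.84 to 1.62) for Tjp1 and 3.40 (1.47 to 6.49) for Ocln. When the cells were clustered on 1 share of their UMIs and measured on the rest, the log2 ratio was 1.98 for Ocln, with an interval that included 0 (-0.04 to 5.11), and 3.26 for Cldn3. For Cldn5 the interval of -1.11 to 7.26 included 0. For Cdh2 the log2 ratio was -1.06 (-2.05 to -0.06), and under 4 alternatives it was between -0.97 and -0.92, short of 2-fold, with intervals that included 0. Differentiating-like cells had a median depth of 10936 UMIs against 20203 in SSC-like and progenitor-like cells, and the part of depth in these ratios was not tested.

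**Figure D2:**
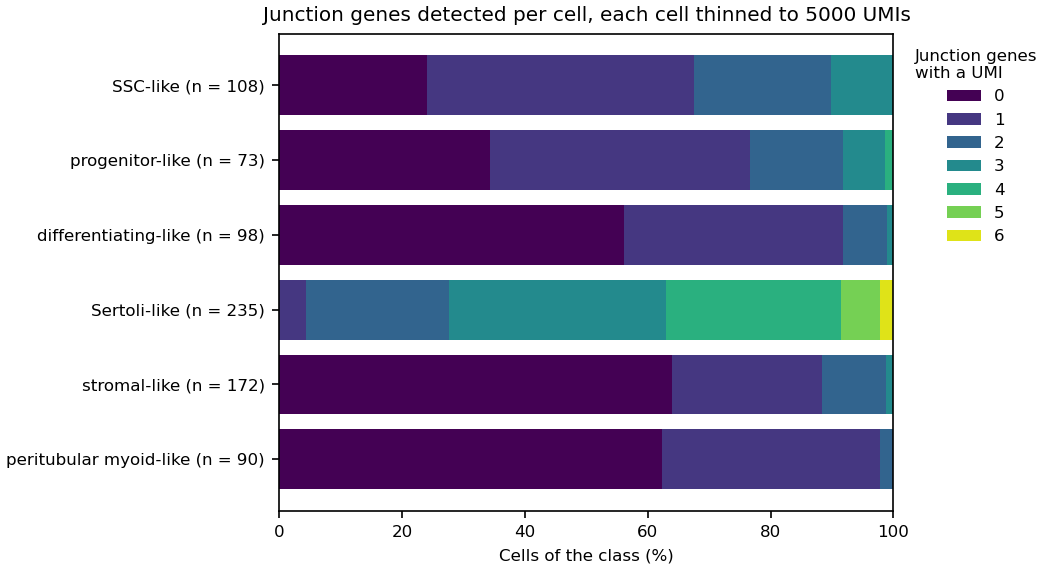
Share of the cells of each class, in percent, by the number of the 9 junction genes with at least 1 UMI after thinning to 5000 UMIs per cell; n is the number of cells deep enough to thin. Sertoli-like cells have a median of 3 members and none has 0, while 64.0% of stromal-like and 56.1% of differentiating-like cells have none.

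At equal depth most Sertoli-like cells held UMIs of several junction genes. Of 235 Sertoli-like cells thinned to 5000 UMIs, 72.3% had UMIs of 3 or more of the 9 members, and the median was 3. Taken singly, Cldn11 was found in 80.0% of these cells, Gja1 in 77.45% and F11r in 74.0%. No like count was made for other sets of genes. The count of cells with none was 0, which allows a share of up to 1.28%. By contrast, 6.45% of 279 germ cells and 1.16% of 172 stromal-like cells had 3 or more members, and 38.0% of germ cells had none. Within the Sertoli-like cells the members' thinned counts were nearly unrelated to each other: over 21 pairs of the 7 detected members, Pearson correlations ran from -0.155 (Ocln with Cdh2) to 0.115 (Cldn11 with Ctnna1), values too weak in counts this sparse to be a finding.

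The Sertoli-like cells fell into 3 clusters of 133, 77 and 45 cells. The second had the most Uchl1 (193 CPM), and the third carried the mitotic genes, with 44 of its 45 cells holding at least 3 UMIs of Mki67, Top2a, Cdk1, Ccnb1, Birc5, Cenpf, Tpx2 and Ube2c together. Cldn11 was at 417, 566 and 421 CPM in the 3 clusters. Gja1 went the other way, with 333, 228 and 318 CPM, and Cdh2 had 37.5, 83.0 and 51.3 CPM. The second cluster over the other Sertoli-like cells had a log2 ratio of 0.44 (0.25 to 0.62) for Cldn11, -0.53 (-0.80 to -0.27) for Gja1 and 0.99 (0.45 to 1.53) for Cdh2. For Ocln, F11r, Tjp1 and Ctnna1 the intervals of this ratio included 0. Among other junction genes, Cgn (330 against 166 CPM) and Pvrl2 (232 against 128 CPM) were higher in the second cluster than in the other Sertoli-like cells. Espn (81.5 against 184 CPM) and Jam2 (118 against 164 CPM) were lower. Jam2 was highest in the third cluster (215.5 CPM), and the first over the second had a log2 ratio of 0.27 (-0.12 to 0.68). The second over the third cluster had 0.69 (-0.01 to 1.44) for Cdh2 and 0.43 (0.08 to 0.78) for F11r. The clusters were made from the same cells, so these values describe them and test nothing, and the second cluster was not separate under 6 of 15 alternative ways of processing, the count split included.

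**Figure D3:**
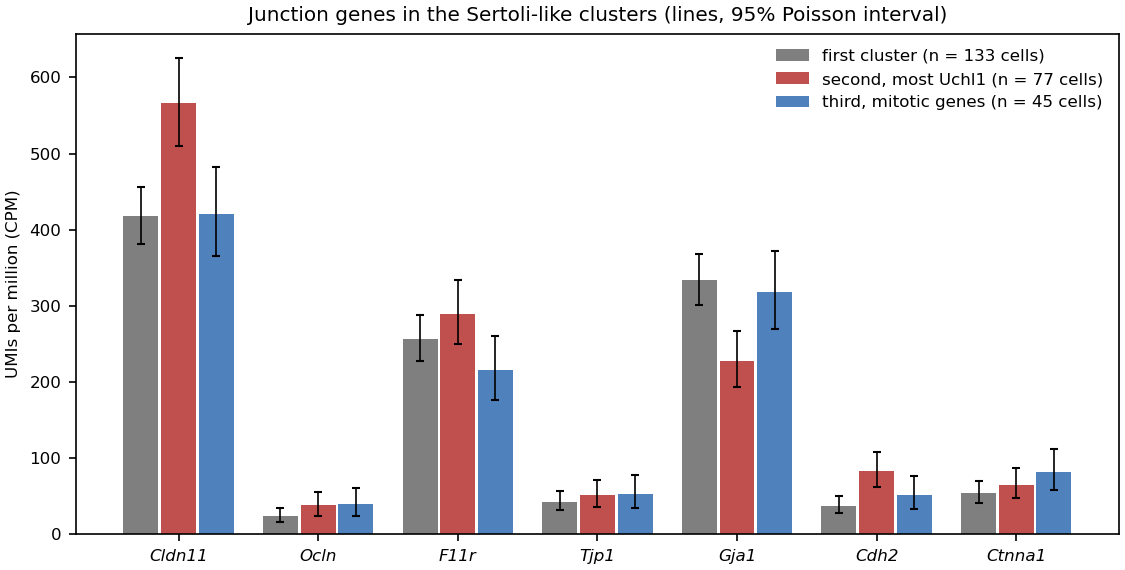
Level in CPM of the 7 junction genes detected in Sertoli-like cells, by Sertoli-like cluster; bars are summed UMIs scaled to CPM and lines are 95% Poisson intervals. Cldn11 and Cdh2 are highest and Gja1 lowest in the second cluster, the 1 with the most Uchl1.

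Sertoli cells still divide at this age, and the members differed little with it. The 73 Sertoli-like cells with at least 3 UMIs of mitotic genes were compared with the 182 others. F11r was at 224 CPM against 276 CPM (log2 ratio -0.30, -0.56 to -0.05), and for the other 6 detected members the interval included 0, with log2 ratios from -0.15 for Cldn11 to 0.31 for Ocln. Jam2 (184 against 132 CPM) and Espn (186 against 136 CPM) were higher in the cells with mitotic UMIs, with intervals that excluded 0. For Cgn (log2 ratio -0.08, -0.36 to 0.19) and Pvrl2 (-0.01, -0.34 to 0.30) the intervals included 0. Cells with at least 3 mitotic UMIs were also deeper, with a median of 10445 UMIs against 7964, and the part of depth was not tested.

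Other genes of the same junctions showed which partners accompanied the members. The shares at least 2-fold higher and lower over all genes, 16.3% and 21.1%, are the background for each list. Of 29 further tight junction membrane genes, 21 had a UMI in kept cells. The 19 with none in Sertoli-like cells include the genes found in no kept cell, and no like share of all genes was taken. At least 100 UMIs were held by 4, all 4 of them at least 2-fold higher in Sertoli-like cells. These were Jam2, at 151 CPM with a log2 ratio over all other kept cells of 5.30 (4.78 to 5.86), Cxadr, the coxsackievirus and adenovirus receptor, at 30.1 CPM with 2.56 (1.99 to 3.14), Jam3 at 110 CPM with 1.72 (1.47 to 1.97), and Cldnd1 at 99.3 CPM with 1.05 (0.81 to 1.28). Cldnd1 had a similar level in stromal-like (96.2 CPM) and peritubular myoid-like cells (108 CPM), and 19.9 to 39.4 CPM in the germ cell classes. Of the claudins in this list, Cldn12 had 18 UMIs in Sertoli-like cells (7.84 CPM, log2 ratio 0.06, -0.79 to 0.83), Cldn7 had 6 and Cldn23 had 3, and these 3 are named after their values were seen. Cldn1 was at the other end, with 1 of its 64 UMIs in Sertoli-like cells and its highest level in stromal-like cells (29.2 CPM). Marveld2, which encodes tricellulin, had 4 of 96 UMIs in Sertoli-like cells and was at 14.3 to 17.8 CPM in the 3 germ cell classes.

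Of 20 scaffold and polarity genes, 14 had at least 100 UMIs, with 7 higher, 3 lower and 4 between, and a median log2 ratio of 0.82. Cgn, which encodes the tight junction plaque protein cingulin, was at 213 CPM with a log2 ratio of 4.66 (4.30 to 5.03). Pard6b, a polarity adaptor, had 42.7 CPM and 3.94 (3.28 to 4.65), Amotl2, an actin-linked angiomotin family member, 70.6 CPM and 3.06 (2.65 to 3.48), and the cingulin-like Cgnl1 57.5 CPM and 1.76 (1.41 to 2.11). Prkcz, an atypical protein kinase C of the polarity complex, was lower in Sertoli-like cells, at 5.23 CPM against 44.2 to 61.9 CPM in the germ cell classes (log2 ratio over all other kept cells -2.75, -3.72 to -1.92). Mpdz, a scaffold with many PDZ domains, was lower too (-2.01, -3.25 to -0.99).

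Gjc1, the only other connexin with at least 100 UMIs in kept cells, did not follow Gja1. Of 22 connexin and pannexin genes, only 14 had a UMI in any kept cell. There were 17 with no UMI in Sertoli-like cells, a count that includes the genes found in no kept cell. At least 100 UMIs in kept cells were held by 2, with 1 lower and 1 between. Gjc1, which encodes connexin 45, had 2 of its 473 UMIs in Sertoli-like cells (log2 ratio -5.97, -9.02 to -4.11). It was at 61.4 to 72.2 CPM in the 3 germ cell classes, where Gja1 was at 1.19 to 3.40 CPM. Peritubular myoid-like cells had 43.2 CPM of Gjc1 and stromal-like cells 28.6 CPM. The mixed cluster had 188 CPM of Gjc1, with 30 UMIs in the 10 cells with Rgs5 and 1 in the 3 cells with Cldn5. Panx1, which encodes a channel protein, had 10.5 CPM in Sertoli-like cells with a log2 ratio of -0.71 (-1.39 to -0.08). Gja4 and Gjb2 had 0 UMIs in Sertoli-like cells and 41 and 32 in all, 27 of the latter in SSC-like and progenitor-like cells. Gja6 had 2 UMIs in Sertoli-like cells, too few for a level.

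Of 24 adherens junction genes, 13 had at least 100 UMIs, with 6 higher, 3 lower and 4 between, and a median log2 ratio of 0.43. Pvrl2, which encodes the adhesion protein nectin-2, was at 158 CPM with a log2 ratio of 3.34 (3.05 to 3.63), and the related Pvr at 24.0 CPM with 2.60 (1.96 to 3.26). Ctnna2, the neuronal paralog of Ctnna1, showed the uneven pattern that Ctnna1 lacked, with 76 of 93 UMIs in Sertoli-like cells and a log2 ratio of 4.07 (3.30 to 4.92). Ctnnb1, which encodes beta-catenin, was at 200 CPM (1.11, 0.94 to 1.27) and Actn4, an actin crosslinker, at 163 CPM (1.16, 0.97 to 1.35), although Actn4 was at 186 CPM in peritubular myoid-like cells and at 242 CPM in the mixed cluster. Cdh11 and Cdh4, which encode other cadherins, were the lowest of the list. Cdh11 had 1 of 166 UMIs there and was at 151 CPM in peritubular myoid-like cells, and Cdh4 had 0 of 44 UMIs there and 41 in SSC-like and progenitor-like cells.

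The fifth list held 12 genes of the basal ectoplasmic specialization, the actin-rich adhesion of Sertoli cells, and of the Sertoli cytoskeleton. Of 11 with at least 100 UMIs, 5 were higher, 1 was lower and 5 were between, with a median log2 ratio of 0.51. Espn, which encodes the actin-bundling protein espin, was at 154 CPM (log2 ratio 2.75, 2.50 to 3.01), Eps8, another actin regulator, at 67.1 CPM (2.34, 1.98 to 2.70), Zyx, which encodes zyxin, at 273 CPM (2.16, 1.995 to 2.33) and Rdx, which encodes radixin, at 358 CPM (1.34, 1.21 to 1.47). Vim and Arpc2 had the most UMIs in Sertoli-like cells, with log2 ratios of 0.33 and 0.35 over all other kept cells together. For Vim that pool joined unlike classes. Its level was 575 CPM in Sertoli-like cells, 5.4 to 8.7 CPM in the germ cell classes and 1788 CPM in stromal-like cells. Msn, which encodes moesin, was lower (-1.74, -2.32 to -1.20). Itgb1, an integrin subunit, did not differ from all other kept cells together (-0.06, -0.28 to 0.15). Its level was 97.6 CPM in Sertoli-like cells, and the other classes ran from 45.6 CPM in progenitor-like to 251 CPM in peritubular myoid-like cells.

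**Figure D4:**
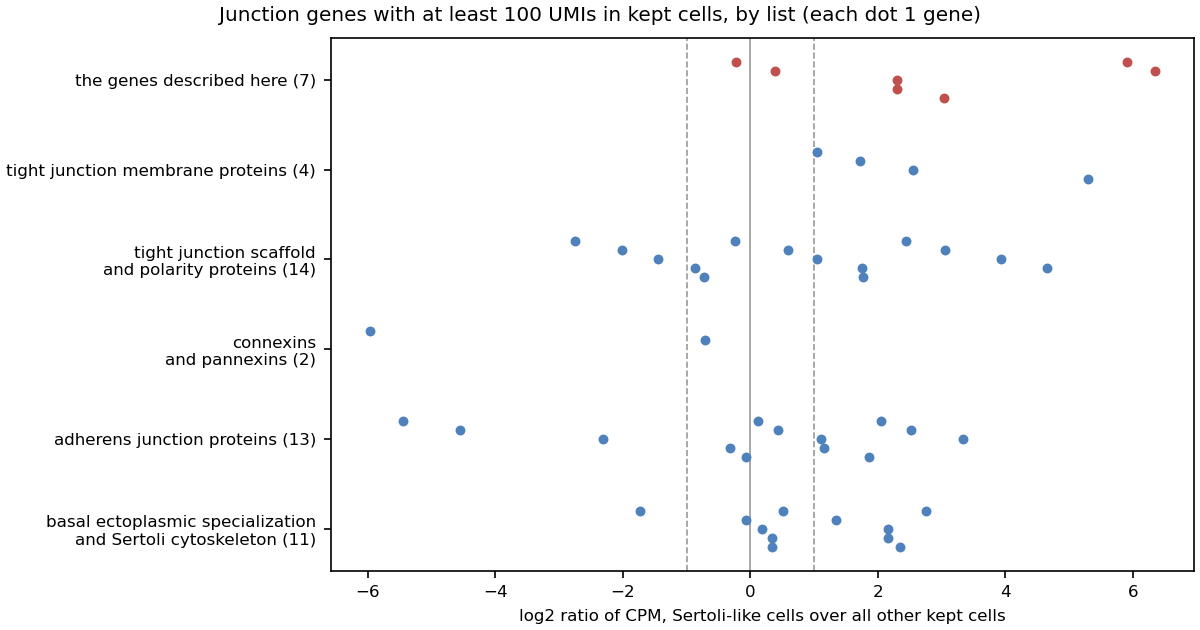
log2 ratio of CPM in Sertoli-like over all other kept cells for junction genes with at least 100 UMIs, 1 dot per gene, by list, with the number of genes in parentheses; the dashed lines are 2-fold. The 7 members with enough UMIs run from -0.23 to 6.34, the 4 tight junction membrane genes lie above 1 and the 2 connexin and pannexin genes lie below 0.

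The genes whose levels over the 8 classes were most like those of a member were sought among 6530 genes with at least 200 UMIs, by the Pearson correlation of log2(CPM + 1). For Cldn11 they were Dhh (0.990), itself a Sertoli marker, Tnfrsf12a (0.986) and Tmem147 (0.979). Gja1 was most like Fndc5 (0.976), Inha (0.971) and Slc25a51 (0.971), and Tjp1 was most like Spen (0.971), Hmgxb4 (0.967) and Scaf4 (0.961). Cldn3 was most like Egr4 (0.987), Mpc2 (0.983) and Gyltl1b (0.983), and Ocln was most like Tspan5 (0.978), Dym (0.953) and Nacc1 (0.947). F11r was most like Nacc1 (0.945), Pcnxl3 (0.935) and Gm16286 (0.909), Cdh2 like Zzz3 (0.971), 2300009A05Rik (0.959) and Ndrg3 (0.946), and Ctnna1 like Cdk1 (0.959), Nucks1 (0.948) and Ndufaf3 (0.947). Those of Cldn5 were Sept7 (0.970), Gzmc (0.959) and Xcl1 (0.957), a likeness fixed by the mixed cluster. For Ctnna1 no neighbours in the order of classes differed beyond counting error, and the Cdh2 point of the mixed cluster rests on 7 UMIs. Each value is among the 3 highest of 6530 genes over 8 points that share 1 library, so its height alone is no finding.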

How the data were processed

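Testis cells of 1 wild type library were analysed. The authors aligned reads to mm10 with Cell Ranger 2.1.0 (submitters' processing notes) and deposited UMI counts per gene and barcode, not normalized. Positions come from the GENCODE annotation of GRCm38, the assembly behind mm10.

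Barcodes with fewer than 500 genes, 10% or more mitochondrial UMIs or a scrublet doublet call (scanpy 1.11.5, 4 calls) were dropped, and the rest were clustered with Seurat 5.3.0 in R 4.3.3 (14 principal components, resolution 0.5, 887 variable genes), leaving 116 junction genes out of the variable genes. Germ cells were clustered again. Clusters were named from marker lists. Their leading 10 genes were ranked by the difference in mean log-normalized expression, chosen after a ranking by summed CPM had let 1 barcode rich in hemoglobin leave a germ cell cluster of 188 cells unnamed. The SSC-like and progenitor-like names rest on mean marker levels, with 0 own markers among the leading genes, and classes may differ from the study's own.

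CPM are the summed UMIs of a class scaled to 1000000. Intervals are exact Poisson for levels, exact conditional binomial for ratios and exact binomial for shares (95%, scipy 1.17.1). A count of 0 is given the limit of 3 counts per class. For shares, cells were also thinned to 5000 UMIs and shallower cells left out (20 Sertoli-like, 45 germ). Since UMIs come from transcript ends, levels of different genes are not on 1 scale. Where they stand side by side or are ranked by UMIs, no difference in amount of RNA is meant. With 1 library no p-value was computed.

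The genes described and the lists were chosen with earlier results of these data known. From each list the text names the 3 genes with the most Sertoli-like UMIs and, among genes with at least 30 UMIs, the 3 highest and 2 lowest ratios. The result of 1 gene that this rule picks is not reported here. On 300 simulated cells of 3 classes with 27998 genes, all 300 received their class, and 189 of 200 intervals of changed genes (simulated Sertoli cells over the others) held the true ratio. Intervals lay on the right side of 0 for 42 of 50 genes raised 2-fold and 35 of 50 lowered 2-fold. The simulated classes had markers set far apart, and cells of a class differed by depth and counting error alone. The simulation therefore does not show how well close classes are told apart.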

Additional observations from a re-analysis of the deposited data

How the results depend on the processing

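No paired analysis was possible because the data held 1 library. The 5 members at least 2-fold higher and the 2 at least 2-fold lower in Sertoli-like cells were counted again under 15 alternatives. These changed filters, clustering, denominator, count split and left-out cells, and the counts stayed at 5 and 2 in each. A member with 0 UMIs in Sertoli-like cells counts as lower whatever its level elsewhere. The count of 2 therefore could not change while Cldn3 and Cldn5 had 0 UMIs there, and its constancy is no sign of stability. Sertoli-like cells numbered 54 instead of 255 with a mitochondrial limit of 5%, a limit under which the germ cells stayed undivided. That limit left out cells of the other classes too, so ratios over them compare with a changed pool. Of 593 ratios computed under these alternatives, 582 stayed inside the reported interval, 11 left it (8 of them with the 5% limit) and 0 changed sign where the interval excluded 0. The count of members at least 2-fold lower in SSC-like and progenitor-like than in differentiating-like cells, 1 as reported (Cdh2), was 0 with no mitochondrial limit, with variable genes by vst, with 20 principal components and with a denominator without mitochondrial and ribosomal protein genes. The count of those at least 2-fold higher, 5 as reported, was 4 with no mitochondrial limit and with the count split, and 6 with 10 principal components and with that denominator. The cause was not tested. Of ratios whose interval included 0, that of Tjp1 in Sertoli-like over all other kept cells moved from -0.23 to 0.81 with the 5% limit. The second Sertoli-like cluster was joined to others with the 5% limit, variable genes by vst, 10 or 20 principal components, a resolution of 0.3 and the count split. Where it formed, the log2 ratio over the other Sertoli-like cells ran from 0.41 to 0.49 for Cldn11, from -0.59 to -0.50 for Gja1 and from 0.89 to 1.19 for Cdh2. Thinning moved 35 of 54 shares of cells with a UMI outside their interval, as fewer UMIs per cell must. Leaving out the mixed cluster or the barcode richest in hemoglobin UMIs was chosen after the data were seen. Depth limits Cldn3, Cldn5 and Ocln most, whose UMIs in all kept cells numbered 55, 40 and 125.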
